A study of Mus musculus with 9 samples.

Results

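Carboxylesterases are hydrolases of the endoplasmic reticulum and plasma that cleave ester, amide and thioester bonds. In the liver they clear and activate ester drugs and prodrugs, and several of them also hydrolyze stored triacylglycerol and cholesteryl esters in hepatocytes. In the mouse the family has expanded by tandem duplication into the Ces1, Ces2 and Ces3 subfamilies, whereas humans have a single main liver enzyme, CES1, and an intestinal enzyme, CES2, which is known for activating irinotecan. The 10 hepatic genes described here (Ces1b, Ces1c, Ces1d, Ces1e, Ces1f, Ces1g, Ces2a, Ces2c, Ces3a and Ces3b) were taken by name, with no threshold on a measured value, from a table of 24341 genes that holds 19 rows of the family. Earlier results of these data were known when they were chosen.

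The livers came from wild-type (WT) C57BL/6 mice. Three-prime messenger RNA libraries (QuantSeq) were made 48 hours after an agonist antibody against CD40 (labelled CD40, 3 mice numbered 2, 5 and 9) or after the control injection (labelled PBS, 6 mice numbered 3, 4, 7, 8, 11 and 12). CD40 is a TNF receptor family member on antigen-presenting cells, and the study asked how its activation makes the liver sensitive to chemotherapy. Mice were in general sex-matched and 8 to 12 weeks old, and the study's general methods exclude anti-CD40 animals whose blood B cells did not fall, without saying whether this applied to these mice. Values are FPKM, the fragments assigned to a gene per kilobase of transcript, scaled to the size of the library. Because these libraries read only the 3′ ends of transcripts, an order of FPKM between genes is a description and not a measured order of transcript number. Xist was 2.23 to 3.82 FPKM over all mice. The Y chromosome genes Ddx3y, Eif2s3y, Kdm5d and Uty were at the floor of 0.01 FPKM in every mouse, as in females.

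The bulk livers held more than hepatocytes. In the anti-CD40 livers 18 of 21 hepatocyte markers were lower and 1 was higher, by the test defined below. By the same test 7 of 7 tested neutrophil markers were higher and 6 of 6 Kupffer cell markers were lower. Of the tested monocyte and macrophage markers 8 of 10 were higher and 1 was lower. T cell markers were higher in 7 of 8 and B cell markers in 5 of 5 tested. Of all genes tested, 21.7% were lower and 23.5% higher. The neutrophil, T cell and B cell counts were partly set by the filter of that test, a mean of at least 0.1 FPKM over all mice. Cxcr2, Ngp, Cd8a and Cd79a passed it only through the anti-CD40 group (control means 0.0556, 0.0902, 0.0946 and 0.0878 FPKM). Mpo, Elane and Pax5 were below it. Summed over their lists, neutrophil markers reached 4214 to 5201 FPKM after anti-CD40 and 18.4 to 156 FPKM in controls, and hepatocyte markers 38599 to 46585 and 67591 to 121646 FPKM. Pancreatic acinar markers summed to 1098 FPKM in anti-CD40 mouse 5 and to 27.9 to 190 FPKM in the other 8 mice, and adipocyte markers to 334 and 363 FPKM in control mice 4 and 7 and to 4.41 to 28.3 FPKM in the other 7. Saa1, Saa2 and Saa3, which encode acute phase proteins, took 25.4% to 25.9% of summed FPKM after anti-CD40 and 0.0449% to 0.38% in controls. Relative depth, read from the steps between low FPKM values, ran from 0.87 to 1.13.

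The 10 genes lie in both carboxylesterase clusters of mouse chromosome 8 (mm10). The first cluster, 0.515 Mb at chr8:93020215-93535707, holds Ces1b to Ces1g on the minus strand, and the second, 0.416 Mb at chr8:104734003-105150109, holds Ces2a, Ces2c, Ces3a and Ces3b on the plus strand. Between transcripts (the longest coding one of each gene), identity was 95.4% for Ces3a and Ces3b, 88.9% for Ces1b and Ces1c and 80.8% for Ces2a and Ces2c. The other Ces1 pairs shared 71.5% to 78.0% of aligned bases, and genes of different subfamilies 56.7% to 61.2%. This likeness limits the counts, because 3′ reads from close copies can be assigned to the wrong gene. Of the 50-base stretches in the last 500 bases of the transcript, 25.1% were shared between Ces1b and Ces1c, 31.3% of those of Ces3a also occurred in Ces3b, and 35.7% of those of Ces2c occurred in other Ces2 genes. The share was 9.98% for Ces2a, 5.99% for Ces3b, at most 2.22% for Ces1d and Ces1f, and 0 for Ces1e and Ces1g, so the last 4 are the least exposed to such reassignment. No other gene of the table overlapped a family locus.

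An upstream window of 7 members is among the RefSeq promoter sequences (GRCm38.p6, from 250 bases before to 50 bases after the start site): Ces1b, Ces1c, Ces1e, Ces1g, Ces2a, Ces2c and Ces3b. A D-box, TTATGTAA on either strand, the motif bound by the PAR bZIP factors DBP, TEF and HLF, was present in the windows of 4 of these 7 members and of Ces1a, against 0.938% of 32851 windows of that length. It is the longest run of letters common to these 5 genes, and it was picked after their sequences had been read, so the shares are a description. The 5 sites are shown as 30 bases on the gene's strand with the D-box in capitals, and the number gives the first base of the box from the start site.
Ces1a, chr8:93048372-93048401, -198: cgggaaagagcTTATGTAAgatgttgttgt
Ces1b, chr8:93080006-93080035, -84: gagggggagctTTATGTAAttatgctaatt
Ces1c, chr8:93131359-93131388, -94: gagggggagctTTATGTAAttatgctaatt
Ces1e, chr8:93229682-93229711, -81: ctgagagatatTTATGTAAgaagttgtttg
Ces1g, chr8:93337423-93337452, -232: ggggagaaacaTTATGTAAgatgttccttg

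Ces1b has a second RefSeq start site, from which the same box runs from -7 to 0. Of the 6 Ces1 genes with a window, Ces1h was the one without the D-box. The Ces1b and Ces1c sites were identical over all 30 bases, and their whole windows shared 84.7% of bases. The 250 bases before the start site are given for the most abundant member, Ces1c (minus strand), and for the strongly lowered Ces2a and Ces3b (plus strand). Capitals mark the D-box in Ces1c, the run AACTTTGCCCC in Ces2a and TATAAA in Ces3b.
Ces1c, chr8:93131284-93131533: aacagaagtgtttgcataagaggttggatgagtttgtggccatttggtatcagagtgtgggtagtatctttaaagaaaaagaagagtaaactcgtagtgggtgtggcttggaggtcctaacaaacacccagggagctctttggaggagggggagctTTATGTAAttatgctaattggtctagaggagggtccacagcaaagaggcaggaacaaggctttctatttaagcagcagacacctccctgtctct
Ces2a, chr8:104733753-104734002: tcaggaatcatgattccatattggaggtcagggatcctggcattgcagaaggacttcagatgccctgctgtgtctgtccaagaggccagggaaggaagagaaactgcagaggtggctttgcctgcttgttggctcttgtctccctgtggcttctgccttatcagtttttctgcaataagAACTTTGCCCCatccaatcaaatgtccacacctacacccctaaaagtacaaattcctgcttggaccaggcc
Ces3b, chr8:105083505-105083754: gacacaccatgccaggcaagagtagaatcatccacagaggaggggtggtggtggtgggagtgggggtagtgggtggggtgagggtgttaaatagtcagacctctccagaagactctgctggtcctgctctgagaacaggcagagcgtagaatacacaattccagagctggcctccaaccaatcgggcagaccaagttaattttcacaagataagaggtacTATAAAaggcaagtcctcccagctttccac

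AACTTTGCCCC is the longest run of letters common to the windows of Ces2a, Ces2e and Ces2f, and it occurred on either strand in 6 of the 32851 windows (0.0183%). TATAAA occurred in 13.6% and CCAAT in 37.4% of windows, against 2 and 6 of the 7 members with a window.

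Of the 10 carboxylesterases, 9 were lower in the livers of anti-CD40–treated mice, by 2.67-fold (Ces1b) to 12.2-fold (Ces1e) on the ratio of mean FPKM, and none was higher. Summed over all 10 genes, the anti-CD40 livers held 456 to 496 FPKM and the control livers 3036 to 3796 FPKM, or 0.0467% to 0.0514% against 0.316% to 0.413% of all FPKM. In bulk liver, fewer cells of a type and less RNA per cell cannot be told apart. The test was limma on log2(FPKM + 0.1) over the 13807 genes with a mean of at least 0.1 FPKM, adjusted by Benjamini-Hochberg over all of them, with a call at an adjusted p under 0.05. By that rule 45.1% of all genes tested were called, 21.7% lower and 23.5% higher, and 9.08% were lower by at least 2-fold, which all 9 tested members were. All 9 were well expressed in both groups (7.2 FPKM or more in every mouse), so none passed the filter through 1 group alone. In 8 of the 9 the groups did not overlap, with the anti-CD40 group lower, as in 19.6% of all genes tested (42.4% in either direction). For those 8 the exact permutation p was 0.0238 (2-sided), the smallest that the 84 splits of these mice can give. The plot of FPKM by mouse shows each value behind these counts.

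**Figure D1:**
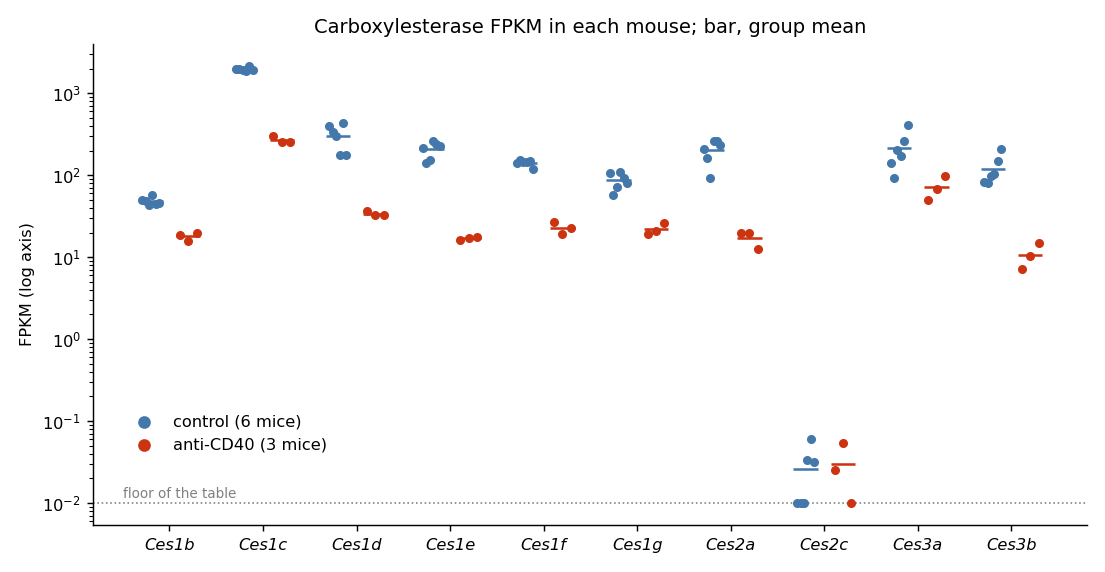
FPKM of the 10 carboxylesterase genes in each mouse on a log axis, with control mice in blue (6), anti-CD40 mice in red (3) and bars at the group means. The groups are apart for 8 genes, touch for Ces3a (highest anti-CD40 mouse 96.5, lowest control 93.2 FPKM) and lie near the floor of 0.01 FPKM for Ces2c.

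Ces1c encodes the secreted esterase that accounts for much of the ester hydrolysis in mouse plasma, and it was the most abundant member in every mouse. It measured 1968, 1964, 1933, 1846, 2160 and 1931 FPKM in control mice 3, 4, 7, 8, 11 and 12. In anti-CD40 mice 2, 5 and 9 it measured 300.4, 253 and 254 FPKM. All 3 treated livers thus sat far below a tight control group, whose coefficient of variation was 5.3%. The means were 1967 ± 104 (SD, n = 6) and 269 ± 27.3 FPKM (SD, n = 3), a log2 fold change of -2.87 ± 0.11 (SE, limma adjusted p = 7.89e-08).

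Ces1d, also known as triacylglycerol hydrolase, mobilizes stored lipid for very low density lipoprotein (VLDL) assembly. Its control values were 394, 335, 297, 178, 434 and 178 FPKM in the same order of mice. The anti-CD40 values were 36.4, 32.4 and 32.3 FPKM. Control mice 8 and 12 were lower than the other 4 controls, yet each was still above every treated mouse. The log2 fold change was -3.08 ± 0.29 (SE, limma adjusted p = 1.67e-05).

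Ces1e encodes egasyn, which holds beta-glucuronidase in the endoplasmic reticulum. It was 217, 143, 155, 263, 243 and 226 FPKM in controls. After anti-CD40 it was 16.1, 17.3 and 17.6 FPKM. The treated livers were close together and the fall, -3.57 ± 0.20 on the log2 scale (SE, limma adjusted p = 7.69e-07), was the largest point estimate among the members.

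Ces1f, a second microsomal triacylglycerol hydrolase, measured 143, 151, 145, 147, 149 and 119 FPKM in controls. The treated mice had 27.0, 19.2 and 22.8 FPKM. Mouse 12 lay below the other 5 controls, which were close together, and no control came near the treated group. The log2 fold change was -2.63 ± 0.13 (SE, limma adjusted p = 3.36e-07).

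Ces1g, which is linked to hepatic lipid secretion in the mouse, was 106, 57.6, 72.5, 111, 92.5 and 80.1 FPKM in controls and 19.2, 20.8 and 26.0 FPKM after anti-CD40. The groups were apart, with a log2 fold change of -1.95 ± 0.21 (SE, limma adjusted p = 3.67e-05). Ces1b, the close copy of Ces1c, was 49.3, 48.1, 43.8, 56.6, 44.7 and 46.0 FPKM in controls and 18.5, 15.9 and 19.7 FPKM in treated mice. Its groups were also apart, with the smallest point estimate of the 9, -1.41 ± 0.12 (SE, limma adjusted p = 7.19e-06).

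In the second cluster, Ces2a, a CES2-type enzyme of liver, was 207, 163, 91.8, 260, 262 and 235 FPKM in controls. It was 19.6, 19.9 and 12.4 FPKM after anti-CD40. Control mouse 7 was the lowest of its group and still above all treated mice, and the log2 fold change was -3.49 ± 0.32 (SE, limma adjusted p = 1.45e-05). Ces2c is known as a liver acylcarnitine hydrolase, but it was barely measured here. Of its 3′ stretches, 35.7% occurred in Ces2b, Ces2d-ps or Ces2e, so part of its reads may have been assigned elsewhere. The low FPKM of Ces2c does not by itself show that the liver lacks it. At 0.0256, 0.0544 and 0.01 FPKM in treated mice and 0.01 to 0.06 FPKM in controls, it was at or near the floor of the table and was not tested. The smallest whole reads that fit the FPKM steps were at most 2 in any mouse, with 3 in all after anti-CD40 and 4 in controls. Larger multiples would fit as well.

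Ces3a and Ces3b are liver esterases of nearly the same sequence, and the falls of their FPKM differed in size. Reads exchanged between these copies could change that difference. Ces3b was 81.6, 80.3, 97.3, 105, 150 and 209 FPKM in controls. After anti-CD40 it was 7.20, 10.3 and 14.7 FPKM. The groups were far apart, with a log2 fold change of -3.44 ± 0.32 (SE, limma adjusted p = 1.64e-05). Ces3a was 139, 93.2, 201, 174, 262 and 408 FPKM in controls. The treated mice had 50.3, 67.8 and 96.5 FPKM, and mouse 9 lay above control mouse 4. The log2 fold change of Ces3a was -1.47 ± 0.40 (SE, limma adjusted p = 0.0126), with an exact permutation p of 0.0476 (2-sided). This was the weakest call of the 9: without anti-CD40 mouse 2 it was -1.24 and did not pass (limma adjusted p = 0.0672). In both genes control mice 11 and 12 were the highest of their group and, among treated mice, mouse 9 was the highest.

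In controls the order of mean FPKM was Ces1c, Ces1d (303 ± 107), Ces3a (213 ± 111), Ces1e (208 ± 48.6), Ces2a (203 ± 65.8), Ces1f (142 ± 11.7), Ces3b (120 ± 50.1), Ces1g (86.6 ± 20.4), Ces1b (48.1 ± 4.67) and Ces2c (SD, n = 6). Apart from Ces1c, neighbors in this order overlapped from Ces1d down to Ces1g, whereas every control value of Ces1b was below every one of Ces1g. After anti-CD40 Ces1c was followed by Ces3a (71.5 ± 23.3) and Ces1d (33.7 ± 2.31), and then by Ces1f (23.0 ± 3.87), Ces1g (22.0 ± 3.57), Ces1b (18.0 ± 1.93), Ces2a (17.3 ± 4.24), Ces1e (17.0 ± 0.814) and Ces3b (10.7 ± 3.78) (SD, n = 3). In the treated mice each gene from Ces1f down to Ces2a overlapped the next, and the other neighbors were apart. Ces1e, at 143 FPKM or more in every control, had a lower treated mean than every tested member but Ces3b.

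Ratios within a mouse, which the scaling of a library cannot move, show unequal falls of FPKM. Reads assigned to a close copy can still move such a ratio, as between Ces1b and Ces1c or between Ces3a and Ces3b. Ces1c was 32.5 to 48.2 times Ces1b in controls and 12.8 to 16.2 times Ces1b after anti-CD40. Ces3b was 0.485 to 0.862 times Ces3a in controls and 0.145 to 0.153 times in treated mice, a difference of -1.98 in the log2 ratio. Ces1f was 0.529 to 1.06 times Ces1e in controls and 1.11 to 1.67 times after anti-CD40. The Ces1d to Ces1c ratio overlapped between the groups, at 0.0923 to 0.201 in controls and 0.121 to 0.129 in treated mice. Across all 36 pairs of the 9 tested members the ratio did not overlap between the groups in 15 and overlapped in 21. The same was apart in 29.3% of the pairs of genes called lower, and in 44.9% of all pairs of genes tested. Ordered by log2 fold change (Ces1e, Ces2a, Ces3b, Ces1d, Ces1c, Ces1f, Ces1g, Ces3a, Ces1b), each pair of neighbors overlapped in its ratio, so the order was resolved only over larger steps.

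**Figure D2:**
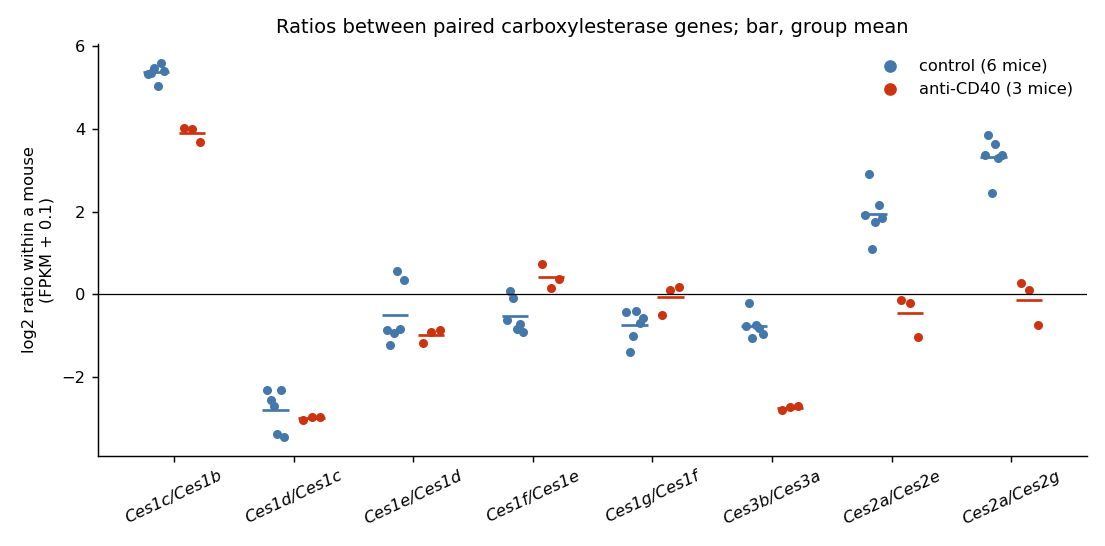
Within-mouse log2 ratio of FPKM + 0.1 for 8 pairs of carboxylesterase genes, with control mice in blue (6), anti-CD40 mice in red (3) and bars at the group means. The groups are apart for Ces1c/Ces1b, Ces1f/Ces1e, Ces3b/Ces3a, Ces2a/Ces2e and Ces2a/Ces2g and overlap for Ces1d/Ces1c, Ces1e/Ces1d and Ces1g/Ces1f.

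Ces2g and Ces2e, both within the second cluster, were measured at levels that allow a comparison with Ces2a. Ces2g was 16.3, 18.4 and 20.9 FPKM after anti-CD40 and 11.3 to 26.7 FPKM (median 20.4) in controls, and its log2 fold change of -0.05 ± 0.23 was not called (SE, limma adjusted p = 0.892). The sign of that value turned under other scalings. Under the hepatocyte marker shift described below, Ces2g was called higher (0.73, limma adjusted p = 0.01375). Ces2e was 21.6, 22.8 and 25.2 FPKM against 21.9 to 77.5 FPKM (median 57.0), with overlapping groups and a log2 fold change of -1.10 ± 0.33 (SE, limma adjusted p = 0.0201). The Ces2e call was lost without anti-CD40 mouse 2 or mouse 5 (adjusted p = 0.0722 and 0.0592), with no filter on low values (0.0716), with the Saa genes left out (-0.74, 0.0691) and under the hepatocyte marker shift described below (-0.33, 0.404). Ces2a was 5.45 to 14.4 times Ces2g in controls and 0.597 to 1.20 times Ces2g after anti-CD40, so these genes, which lie in the same cluster on the same strand, ended at like FPKM. Ces2a was 2.15 to 7.44 times Ces2e in controls and 0.494 to 0.91 times Ces2e after anti-CD40.

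The other 7 rows of the family were barely detected, and their reads below are the smallest whole numbers that fit the FPKM steps. Ces4a had 5, 0, 3, 1, 17 and 12 reads in control mice 3, 4, 7, 8, 11 and 12 and 0, 1 and 1 in treated mice, and its log2 fold change of -0.87 ± 0.48 was not called (SE, limma adjusted p = 0.166). Ces1a had 8 reads over all controls and 1 over treated mice, and Ces2b 6 and 0. Ces2d-ps, Ces2f, Ces2h and Ces5a were at the floor in all 9 mice. The level of Ces1h was not analysed here.

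**Figure D3:**
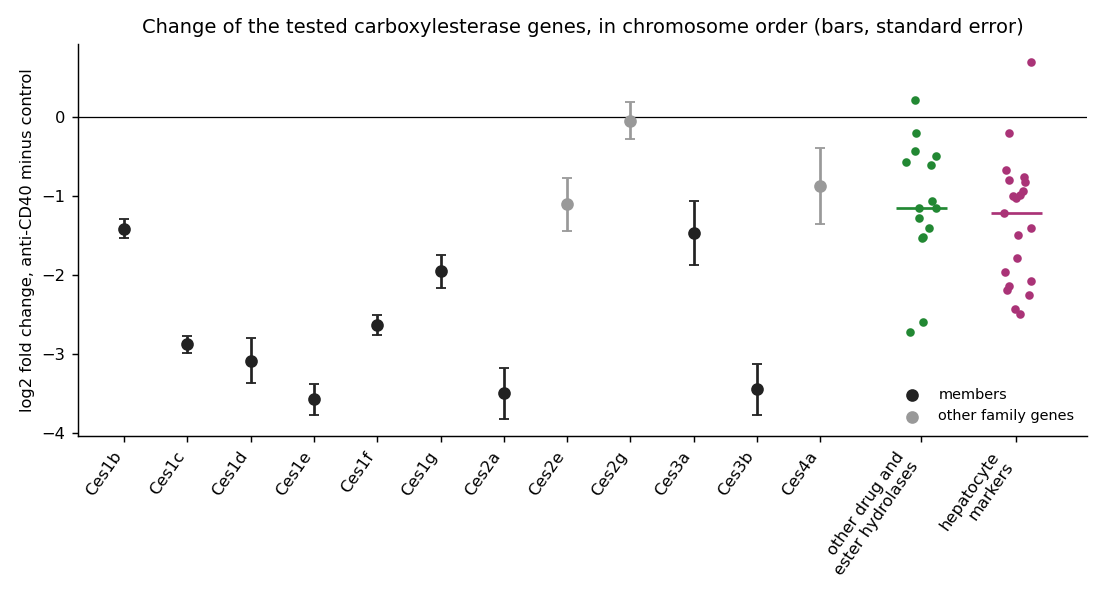
Log2 fold change (anti-CD40 minus control, on log2(FPKM + 0.1)) of the 12 tested family genes in chromosome order, with bars of 1 standard error, beside the single genes and medians (lines) of 15 other drug and ester hydrolases and 21 hepatocyte markers. Members (black) run from -3.57 for Ces1e to -1.41 for Ces1b, Ces2g lies at -0.05, a sign that turned under other scalings, and the medians of the other lists lie at -1.15 and -1.21.

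Of the 7 tested genes next to the clusters that are given here, 5 were called higher and 2 were not called. Over all genes tested, 23.5% were called higher and 45.1% in either direction. Beside the first cluster Mmp2, a matrix metalloproteinase, had a log2 fold change of -0.07 (not called, with a sign that turned under other scalings), and Lpcat2, a lysophospholipid acyltransferase, rose by 1.53. Nudt21, encoding a pre-mRNA cleavage factor, rose by 1.03. Around the second cluster Rrad, a small GTPase, rose by 2.15, Fam96b by 0.47 (limma adjusted p = 0.0341) and Cbfb, the partner of the RUNX factors, by 0.98, and D230025D16Rik had -0.20 (not called, with a sign that turned under other scalings). The Fam96b call was lost without treated mouse 2 or 9 or control mouse 3, 7, 11 or 12 (limma adjusted p up to 0.168). It was also lost with no filter on low values (limma adjusted p = 0.07275).

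Most of the 21 hepatocyte markers were lower in these livers, and 6 members were lower still. Ces1c, Ces1d, Ces1e, Ces1f, Ces2a and Ces3b each had a more negative log2 fold change than all 21 hepatocyte markers, whose extremes were Cyp2e1 (-2.49), Alb (-2.43) and Cyp3a11 (-2.25). Ces1g was lower than 14 of the 21, and Ces1b and Ces3a lower than 12. Only Trf, encoding transferrin, was called higher (0.70, limma adjusted p = 0.0272), a call lost with no filter on low values (limma adjusted p = 0.52), without any 1 of the treated mice, and without control mouse 3, control mouse 7 or control mice 4 and 7 together (0.0515 to 0.0859). When each mouse was shifted by the median of its hepatocyte markers, which raised the median of all genes by 0.78, the log2 fold change was still -2.79 for Ces1e, -2.72 for Ces2a, -2.67 for Ces3b, -2.30 for Ces1d, -2.096 for Ces1c and -1.86 for Ces1f. It was -1.17 for Ces1g and -0.63 for Ces1b (limma adjusted p = 0.00267), and Ces3a, at -0.69, was no longer called (limma adjusted p = 0.136). Rescaled to the FPKM outside the Saa genes, which raised the median of all genes by 0.34, all 9 members were again called lower, from -3.20 for Ces1e to -1.05 for Ces1b, with Ces3a at -1.10 (limma adjusted p = 0.0348). Without control mice 4 and 7, those high in adipocyte markers, and without anti-CD40 mouse 5, high in pancreatic markers, all 9 members were also lower. The part of the infiltrating cells in the falls was not tested.

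**Figure D4:**
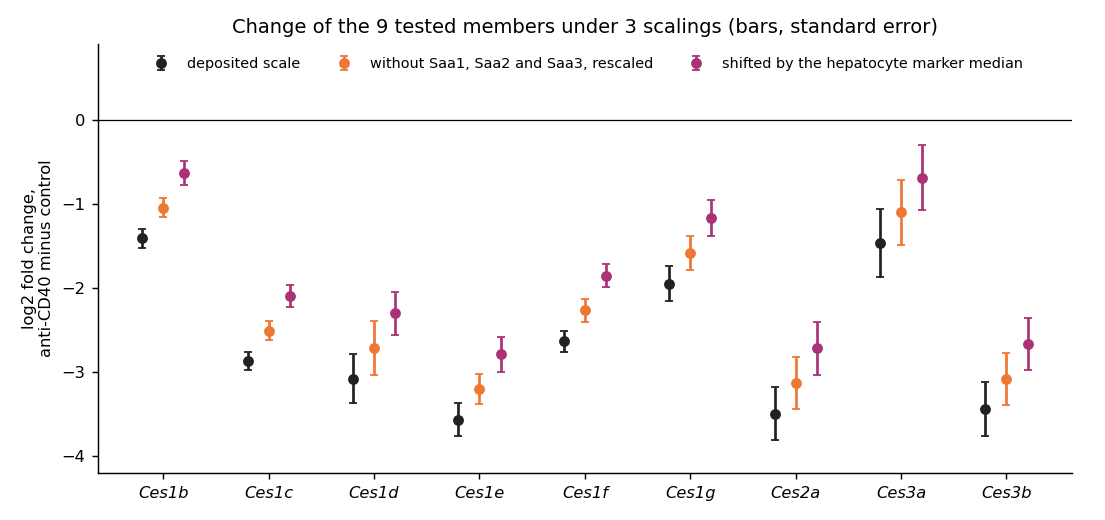
Log2 fold change (anti-CD40 minus control) of the 9 tested members with bars of 1 standard error on the deposited scale (black), rescaled to the FPKM outside Saa1, Saa2 and Saa3 (orange), and with each mouse shifted by its hepatocyte marker median (purple). Every point estimate is below 0 under all 3 scalings, and Ces3a, at -0.69 in purple, is the one that does not pass the test there.

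Among 15 other hydrolases of drugs and esters, 11 fell and none rose, against 21.7% and 23.5% of all genes tested. Their median log2 fold change was -1.15, against 0.0056 for all genes tested and -2.87 for the 9 tested members. Pon1, the lactonase carried by plasma lipoproteins, fell from 825 ± 138 to 125 ± 24.9 FPKM (SD), or by 2.72 on the log2 scale. Afmid, the formamidase of tryptophan breakdown, fell by 2.59, and Aadac, an arylacetamide deacetylase of the endoplasmic reticulum, by 1.53. The other 4, among them Pon3 (0.22), were not called. Under the hepatocyte shift 5 of the 15 were lower and 1 was higher.

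Neutral lipid genes, the setting in which Ces1d and Ces1f act, moved both ways. Of the 23 tested, 10 were lower and 5 higher, with a median of -0.26. Over all genes tested 21.7% were lower and 23.5% higher, so rises in this list were about as common as elsewhere. Those that rose most were Hilpda (1.56) and Plin2 (1.29), both encoding proteins of the lipid droplet, and Plin4 (1.54). The Plin4 call (limma adjusted p = 0.0143) was lost without treated mouse 9 (0.069) and with no filter on low values (0.056). Those that fell most were Fitm1 (-2.83), a factor in droplet formation, Cideb (-1.84), which takes part in VLDL lipidation, and Lipc (-1.57), the hepatic lipase. Pnpla3 was below the filter. Under the hepatocyte shift 3 genes of the list were lower and 9 higher, and with the Saa genes left out 6 were lower, so the balance of the list depended on the scaling.

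Of 13 transcription factors known to act on carboxylesterase genes, 6 were lower and 1 was higher, against 21.7% and 23.5% of all genes tested. The median of the 13 was -0.51. Srebf1, the SREBP-1 gene, fell by 2.54, Nr1i3, encoding the xenobiotic receptor CAR, by 2.38, and Cebpa by 1.49. Nr1i3 is given the same locus as the hepatocyte marker Apoa2. The control means were 29.3 FPKM for Nr1i3 and 25775 FPKM for Apoa2, whose log2 fold change was -2.18. Whether reads of Apoa2 entered the Nr1i3 value was not tested. Under the hepatocyte shift 3 of the 13 were lower and 3 higher. Nr1i2 (-0.61), which encodes the xenobiotic receptor PXR, Ppara (-0.51) and Hnf4a (-0.44) were among the 6 not called. Nfe2l2, encoding NRF2, rose by 0.80 (limma adjusted p = 0.0258). That call was lost without anti-CD40 mouse 2 or mouse 5 (limma adjusted p = 0.115 and 0.0724) and with no filter on low values (0.07915).

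The genes outside the family whose pattern over the 9 mice was most like the median of the members were A230050P20Rik, Fn3k, Grid1, Hsd3b3 and Selo. Their root mean square differences from that median were 0.165, 0.194, 0.208, 0.23 and 0.234 on the log2 scale. Fn3k, encoding fructosamine-3-kinase, for example, went from 17.3 ± 2.38 (SD, n = 6) to 1.94 ± 0.371 FPKM (SD, n = 3). Grid1 was below 0.1 FPKM in all treated mice, so its value depends on the added 0.1.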

How the data were processed

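The deposited table holds FPKM per gene and mouse, made by the authors from QuantSeq 3′ FWD libraries (NextSeq 500) with STAR on mm10 and Cufflinks and Cuffdiff (per the labels, RNA-Seq Alignment application 1.1.0 and Cufflinks Assembly & DE application 2.1.0). How reads matching several genes were assigned is not given in the sources used here. The authors' own comparison columns, fold changes and p-values, were not used. After 15 genes with a failed estimate were left out, 24326 genes remained. limma 3.58.1 (R 4.3.3, eBayes with trend) was fitted to log2(FPKM + 0.1) for genes with a mean of at least 0.1 FPKM. Exact tests used all splits of the mice. The limma p-values weigh the difference between the groups against the spread of these mice within the groups. FPKM give no read totals. Relative depth came from the FPKM ratios between mice of genes above the floor in only a few mice. Of 3925 low genes then examined, 69.48% gave whole reads in every mouse (within 0.1 read), too few for a count test. The scripts were tested on simulated data. The members and lists were chosen with earlier results of these data known. Genes named beside the members were the 3 largest rises and falls called in each list, the 2 nearest tested genes on each side of a cluster and the 5 most alike profiles, of which 1 gene is not reported here. The other genes named from the transcription factor and hydrolase lists, the motifs and the gene pairs were chosen after their values were seen.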

Additional observations from a re-analysis of the deposited data

Results flagged for a closer look

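The Ces1f level in control mouse 12 (119 FPKM) was flagged because it lay far below the other 5 control mice. Its gap to the nearest of them was 0.724 of the whole range of the group, above the 95% critical value of Dixon's test for 6 samples. Among the 17 groups of 6 control mice examined, chance alone flags about 1 in 20. All 3 anti-CD40 mice were below it.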

How the results depend on the processing

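The number of members called lower was 8 or 9 under all 23 alternatives, with no member called higher. Ces3a lost its call in 3 of the 21 alternatives that refit the values: with no filter on low values (adjusted p = 0.0532), with the hepatocyte marker shift and without anti-CD40 mouse 2. No other tested member lost its call in any of the 21. The hepatocyte marker shift and the removal of control mice 4 and 7 were chosen after seeing the data. Under the hepatocyte marker shift 9419 genes were called in all, 686 lower and 8733 higher, against 6230, 2990 and 3240. With Saa1, Saa2 and Saa3 left out, 1649 were lower and 5593 higher, and with a fold change of at least 2 also required, 3142 were called, 1253 lower and 1889 higher. The sign turned for Ces2g (0.0688 with quantile normalization, 0.32 without the Saa genes, 0.73 with the hepatocyte marker shift, -0.1951 to 0.0523 when a mouse was left out), for Mmp2 (0.25 without the Saa genes, 0.71 with the shift and, without control mice 4 and 7, 0.25, and -0.2369 to 0.074 when a mouse was left out) and for D230025D16Rik (0.15 without the Saa genes and 0.58 with the shift, and -0.3152 to 0.0277 when a mouse was left out). The cause was not tested. No paired analysis was possible because the anti-CD40 and control mice share no numbers. Total reads per library are unknown, so values near the floor, as for Ces2c, show no difference that this depth could resolve, and close copies such as Ces3a and Ces3b may have exchanged reads.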
